A study of Mus musculus with 4 samples.

Results

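Axl and Mertk, a pair of receptor tyrosine kinases of the TAM family, and their ligands Gas6 and Pros1 were followed in sorted single cells from the corpus callosum of mice. The members were the 4 rows with these names among the 16342 genes listed in any of the 4 count tables, and each table listed all 4. Male C57BL/6 mice aged 13 weeks gave 4 libraries: 2 labelled week 0 were from untreated mice and 2 labelled week 5 from mice given cuprizone, a copper chelator that kills oligodendrocytes and strips axons of myelin. Live, nucleated, CD11b-positive single cells had been sorted by flow cytometry, and transcripts were read at their 3′ ends with a unique molecular identifier (UMI) for each molecule. The labels do not state whether the libraries of a week came from separate animals. So p-values between the weeks reflect variation among 4 samples that could be purely technical.

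TAM receptors let phagocytes recognise phosphatidylserine, a lipid that dying cells and membrane debris expose. They do not bind the lipid themselves. Gas6 (growth arrest-specific 6) and Pros1 (protein S, also a blood anticoagulant) carry a lipid-binding domain that depends on vitamin K and bridge the lipid to the receptor. Gas6 binds Axl, Mertk and the third family member, Tyro3, whereas Pros1 acts through Tyro3 and Mertk and not through Axl. In macrophages Mertk is known as the receptor of steady-state clearance and Axl as one that inflammatory and interferon signals induce, and in demyelinated white matter both have been tied to the clearance of myelin debris by microglia.

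The tables held 2415001 to 6559032 UMIs each over 1000 barcodes, and 915 to 967 cells per library passed a filter (500 genes or more, mitochondrial UMIs up to 10%; 3728 of 4000 barcodes). The libraries differed in depth in a way that cut across the weeks, with a median of 1531 and 3945 UMIs per cell at week 0 and 6157 and 2489 at week 5 (replicates 1 and 2). The barcode sequences of 6 cells occurred in more than 1 library. All 12 microglia markers had UMIs in every library, and 97.0% and 99.1% of clustered cells at week 0 and 68.7% and 80.9% at week 5 fell into 8 microglia-like clusters. A cluster of 75 cells carried the markers of border-associated macrophages, the resident macrophages of meninges and perivascular spaces. Clusters led by Spp1 (214 cells, 1 of them at week 0) and by Lilrb4a (155 cells, 4 of them at week 0) stayed unnamed because their 10 leading genes held the monocyte marker Fn1 and no microglia marker.

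The receptors stand on different chromosomes. In the GENCODE M21 annotation of GRCm38, Axl (ENSMUSG00000002602.16) lies on the minus strand of chromosome 7 from 25757273 to 25788705, with no overlapping gene. Mertk (ENSMUSG00000014361.5) lies on the plus strand of chromosome 2 from 128698956 to 128802894. It overlaps the antisense gene Gm14011, for which the cells held 4 to 12 UMIs per library. Gas6 (ENSMUSG00000031451.6) lies on the minus strand of chromosome 8 from 13465374 to 13494490 and overlaps Tmem255b on the other strand. Pros1 (ENSMUSG00000022912.8) lies on the plus strand of chromosome 16 from 62854307 to 62929346. No label states how the counting treated strand, so reads from overlapping antisense genes cannot be told apart from those of Mertk and Gas6.

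The 250 bases upstream of the RefSeq start (GRCm38.p6) are shown for the receptors, because they differed most among the members in how their transcripts moved. Each is written 5′ to 3′ on the gene's own strand, with GC boxes (GGGCGG on either strand, the letters bound by Sp1-type factors) in capitals. The Axl window is chr7:25788734-25788983 on the minus strand and the Mertk window chr2:128698665-128698914 on the plus strand.
Axl: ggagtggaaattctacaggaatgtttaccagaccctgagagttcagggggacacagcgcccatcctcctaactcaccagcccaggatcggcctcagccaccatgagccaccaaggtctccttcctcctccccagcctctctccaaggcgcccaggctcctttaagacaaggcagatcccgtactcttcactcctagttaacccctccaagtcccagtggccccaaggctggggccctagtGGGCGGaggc
Mertk: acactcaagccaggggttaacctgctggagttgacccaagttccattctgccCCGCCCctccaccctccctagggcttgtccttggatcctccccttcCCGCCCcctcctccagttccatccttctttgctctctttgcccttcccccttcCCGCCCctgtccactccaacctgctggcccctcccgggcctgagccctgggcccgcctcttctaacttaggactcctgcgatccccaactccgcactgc
The Axl window held 1 GC box, 10 bases before the start, and the Mertk window held 3. The Gas6 window held 4 and the Pros1 window 5. Of 32851 RefSeq promoters searched over the same length, 32.7% held this motif. Neither receptor's window held the interferon response element core GAAANNGAA, the STAT element TTCNNNGAA or the AP-1 element TGANTCA, searched on both strands. These were in 7.13%, 7.02% and 6.75% of promoters. The only other match among the members was 1 STAT element in the Pros1 window. A match or its lack describes these letters in this window alone.

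Axl was the one member that rose between week 0 and week 5. Summed over all cells of a library, Axl stood at 7.02 and 2.85 normalised CPM at week 0 and at 245 and 96.4 at week 5 (replicates 1 and 2; UMIs per 1000000 of the effective library size). Both week 5 libraries lay far above both week 0 libraries, and the groups did not overlap. Behind these levels stood 18 and 14 Axl UMIs at week 0 against 1340 and 319 at week 5. The mean went from 4.94 ± 2.95 to 171 ± 105 (SD, n = 2), a 38.1-fold rise (log2 5.25, SE 0.53, interval 4.06 to 6.44, adjusted p = 0.00108, edgeR quasi-likelihood test with Benjamini-Hochberg adjustment over 11259 genes). By size of the log2 change it ranked 32 among these genes. In that test 304 genes (2.70%) were called, 276 of them higher at week 5, and the median gene changed by -0.01. Of the 4 members, 1 was called.

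Mertk, the receptor of steady-state clearance, did not pass the test. It stood at 657 and 494 normalised CPM at week 0 and at 470 and 517 at week 5, so that the groups overlapped. The log2 difference was -0.22 (SE 0.29, interval -0.86 to 0.42, adjusted p = 0.828, edgeR). This leaves room for a fall of up to 0.86 and a rise of up to 0.42. Relative to all UMIs of each library, without the scaling to effective size, Mertk stood at 712 and 530 CPM at week 0. On that scale it stood at 393 and 525 at week 5, and the groups did not overlap. With library size as the only scaling the log2 difference was -0.43 (SE 0.31, adjusted p = 0.502, edgeR). Tyro3, the remaining family member, had 1 and 0 UMIs at week 0 and 5 and 3 at week 5, too few to enter the test.

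The ligands did not pass the test either. Gas6, the ligand shared by both receptors, stood at 93.6 and 121 normalised CPM at week 0 and 141 and 100.3 at week 5, with overlapping groups (log2 0.17, SE 0.24, interval -0.38 to 0.71, adjusted p = 0.851, edgeR). Its sign turned in several alternatives, given in the closing section. Pros1, the ligand that acts through Mertk, stood at 212 and 215 at week 0 and at 202 and 185 at week 5. Both week 5 values lay below both week 0 values, but the difference was small (log2 -0.14, SE 0.23, interval -0.65 to 0.36, adjusted p = 0.865, edgeR).

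**Figure D1:**
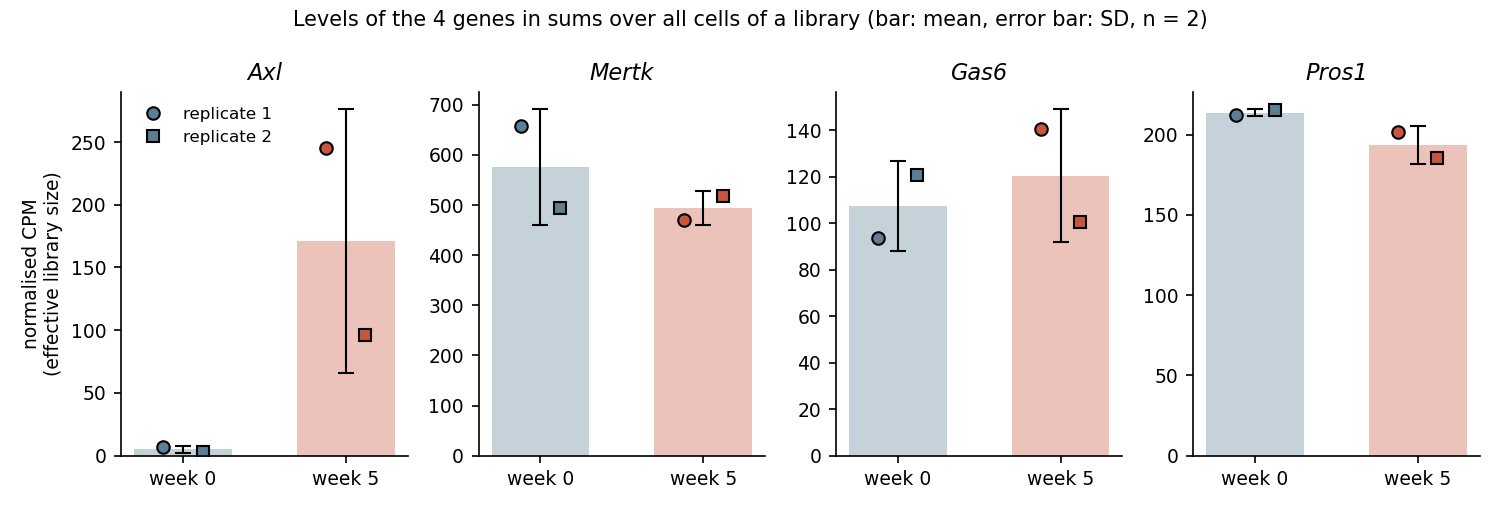
Normalised CPM (UMIs per 1000000 of the effective library size) of Axl, Mertk, Gas6 and Pros1 in sums over all cells of each library, on a linear axis for each gene; bars are means, error bars SD (n = 2 libraries), circles replicate 1 and squares replicate 2. Axl goes from 2.85 and 7.02 to 96.4 and 245, while the week 5 points of Mertk and Gas6 lie among or beside those of week 0.

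Of 12 marker lists of cell types, 7 had summed levels that did not overlap between the weeks, as Axl did. With 2 libraries against 2, such a separation has an exact two-sided permutation p of 0.33. The share of all genes that separate in this way is not given here, so the count of lists by itself shows no shift in cell types. Border-associated macrophage markers summed to 1126 and 277 CPM (UMIs per 1000000 UMIs of the cells concerned, the scale of all levels not called normalised) at week 0 and to 1135 and 1979 at week 5, with 12 of 12 markers detected in 3 libraries and 11 in week 0 replicate 2. Within this list Cd74 had the most UMIs in each library, at 701 and 555 at week 0 and 2726 and 2969 at week 5. Mrc1 had 280 and 52 UMIs against 624 and 201, and Pf4 221 and 33 against 684 and 177. Relative to all UMIs of each library, Mrc1 and Pf4 overlapped between the weeks. Monocyte markers summed to 52.4 and 17.7 at week 0 and to 136 and 58.0 at week 5, most of the latter from Fn1 in replicate 1 (743 UMIs). Of the 8 monocyte markers, 4 and 4 were at 0 UMIs at week 0 and 1 and 2 at week 5, and Ly6c2, which defines classical monocytes, had 0, 0, 1 and 52. T and NK cell markers summed to 0.845 and 14.0 at week 0 and to 39.4 and 282 at week 5, with 7 and 7 of them at 0 UMIs at week 0 and 6 and 0 at week 5. Ccl5 had the most UMIs of that list in each library, at 2 and 64 at week 0 and 252 and 492 at week 5. Choroid plexus and ependyma markers went from 838 and 1.75 to 1968 and 2136, and oligodendrocyte markers from 115 and 121 to 201 and 148. Microglia markers were lower at week 5, at 20005 and 23963 against 31744 and 36878, and so were B cell markers, at 167 and 199 against 312 and 284. Most B cell marker UMIs of each library came from Ighm, with 605 and 1145 at week 0 and 950 and 574 at week 5. The part of these lists in the change of Axl over all cells was not tested. Within microglia-like cells alone Axl rose as much as in all cells (log2 5.24, SE 0.34, adjusted p = 3.56e-07, edgeR). The 10 clusters in which microglia markers were highest include the Spp1-led and Lilrb4a-led ones. In these 10 the log2 change was 6.14 (SE 0.53, adjusted p = 9.81e-05, edgeR).

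The rise of Axl was also a rise in the share of cells in which it was found. At least 1 Axl UMI was present in 14 of 929 and 12 of 917 cells at week 0 (1.51% and 1.31%) and in 423 of 967 and 193 of 915 cells at week 5 (43.7% and 21.1%). Since a deeper cell is more likely to show a UMI, cells were also reduced to 1000 UMIs each, which left out 61 to 145 shallower cells per library. The shares were then 0.383% and 0.118% at week 0 (exact 95% intervals 0.0790% to 1.11% and 0.00299% to 0.656%) and 15.9% and 8.52% at week 5 (13.6% to 18.4% and 6.69% to 10.7%). The intervals of both week 5 libraries lay above those of both week 0 libraries. With 2 libraries against 2 the smallest exact two-sided permutation p is 0.33, which the share of each of the 4 genes reached, so this test cannot place a share below 0.05. The mean Axl difference of 11.96 percentage points was 7.26 at 500 UMIs per cell, 18.8 at 2000 and 7.54 in microglia-like cells.

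Mertk UMIs were in most cells at both times, in 71.4% and 78.2% of cells at week 0 and 80.9% and 67.9% at week 5. At 1000 UMIs per cell the shares were 53.6% and 40.9% at week 0 and 37.4% and 40.2% at week 5. The mean fell short of that of week 0 by 8.38 percentage points, but week 0 replicate 2 and week 5 replicate 2 lay within each other's intervals, and without week 0 replicate 1 the difference was -2.02 points. Gas6 shares at 1000 UMIs were 9.44% and 11.9% at week 0 and 9.05% and 8.27% at week 5, and Pros1 shares 19.0% and 20.7% against 16.3% and 16.3%. At this depth both ligands were in slightly fewer cells of each week 5 library, with mean differences of -2.02 and -3.52 points. For Gas6 the difference was -0.778 without week 0 replicate 2, -0.439 at 500 UMIs per cell and -0.599 at 2000, and for Pros1 it was -0.842 in microglia-like cells.

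**Figure D2:**
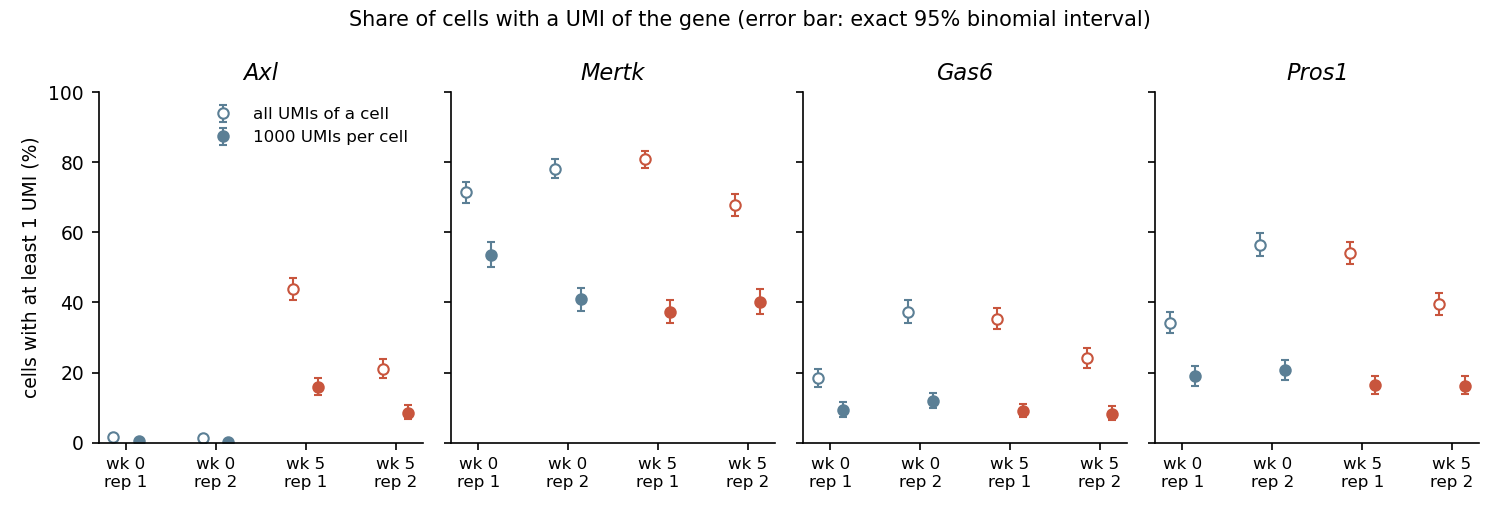
Share of cells (%) with at least 1 UMI of each gene in each library, with all UMIs of a cell (open circles) and with cells reduced to 1000 UMIs (filled circles); blue is week 0, red is week 5, and error bars are exact 95% binomial intervals. Filled Axl points rise from 0.383% and 0.118% to 15.9% and 8.52%, while those of Mertk lie between 37.4% and 53.6%.

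The cells that held Axl at week 0 were in part macrophages. Border-associated macrophage-like cells, 1.73% of the clustered cells of week 0 replicate 1, held 12 of its 18 Axl UMIs (66.7%). In week 0 replicate 2, where only 5 such cells were found, they held 2 of 14. Over both libraries their Axl level was 121 CPM (exact Poisson interval 66.3 to 203, 14 UMIs in 21 cells). Microglia-like cells stood at 2.69 CPM (18 UMIs in 1798 cells). Among these clusters of week 0, Axl was thus high in a rare population and close to absent in the common one.

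At week 5 Axl had spread over most of the microglial range. Microglia-like cells stood at 114 and 73.7 CPM in replicates 1 and 2, against 2.71 and 2.68 at week 0. Most of the microglia-like cells of week 0 belonged to the Gp9-led, Camk2n1-led and shallow Gm43221-led clusters, and at week 5 the Ddit4-led cluster was the largest. Ddit4 encodes a stress-induced inhibitor of mTOR signalling. In clusters present at both times the level rose as well: from 2.34 to 34.9 in the Camk2n1-led cluster and from 21.9 to 112 in the Ddit4-led cluster. The macrophage-like cells, in contrast, went from 121 to 156 (114 to 209), with intervals that overlapped. These values describe clusters made without the 4 members, and counting intervals cover counting error only.

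The rise of Axl was smaller in macrophage-like than in microglia-like cells. Per library, macrophage-like cells held 139 and 68.1 CPM of Axl at week 0 and 104 and 247 at week 5, so that the weeks overlapped, whereas those of microglia-like cells did not. A test of the difference between both changes, with library as a block, gave a log2 difference of -4.30 for Axl (SE 0.82, interval -5.90 to -2.70, adjusted p = 0.000283, edgeR). This test was added after the values were seen. It called 10 of 9985 genes (0.100%), and the median gene differed by 0.17. Without week 0 replicate 1 or without week 5 replicate 1 the difference was -3.42 and -3.41 and no longer passed (adjusted p = 0.970 and 0.869, edgeR). Mertk, Gas6 and Pros1 did not pass (log2 differences 0.61, 0.98 and 0.39, each with adjusted p = 1, edgeR). Without week 0 replicate 1, which left 4 Gas6 UMIs in 5 macrophage-like cells at week 0, the Gas6 difference was 2.83 and passed (adjusted p = 0.0407, edgeR).

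The highest Axl levels at week 5 lay outside the clusters named microglia-like in both libraries. The unnamed Lilrb4a-led and Spp1-led clusters nonetheless had microglia as their highest marker class. The Lilrb4a-led cluster stood at 503 CPM (393 to 635) in replicate 1 and at 351 (260.3 to 462) in replicate 2, and the Spp1-led cluster at 331 (309 to 354) and 232 (168 to 311). The intervals of these clusters overlapped in replicate 2 and not in replicate 1. Spp1 encodes osteopontin, a secreted phosphoprotein of activated microglia, and Lilrb4a an inhibitory receptor of myeloid cells. The clusters after them changed places between the libraries. The Cxcl10-led cluster, which carried interferon-induced genes, stood at 225 and 120.0, the Ccl4-led cluster at 146 and 102 and the Ddit4-led cluster at 119 and 98.8. The macrophage-like cells, at 104 (62.8 to 163) and 247 (161 to 362), lay below those 3 clusters in replicate 1 and above the Spp1-led cluster in replicate 2, there with overlapping intervals. The Camk2n1-led cluster, with P2ry12 and Tmem119 among its leading genes, stood at 21.3 and 40.4 and the Gp9-led cluster at 6.65 and 20.9 (1 and 2 UMIs).

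The libraries of week 5 drew their Axl from different clusters. In replicate 1 the Spp1-led cluster held 63.3% of the Axl UMIs with 19.1% of the cells, and the Ddit4-led cluster held 19.0%. In replicate 2 the Ddit4-led cluster held 31.4%, the Lilrb4a-led cluster 15.7% and the Spp1-led cluster 13.8%, the last with 3.28% of the cells. The Spp1-led cluster is thus mostly 1 library (183 of its 214 cells), and its share of Axl differs accordingly. It was also the deepest cluster, with a median of 13442 UMIs per cell. No cell of week 5 replicate 2 had more than 2996 genes, whereas replicate 1 reached a higher number. Cells of 16000 UMIs or more numbered 67 in replicate 1 and 0 in replicate 2. The part of this unequal upper end in the difference between the libraries was not tested. Without week 5 replicate 1 the change of Axl over all cells was log2 4.43, in a fit where the 1 library left at week 5 was assumed to vary like those of week 0.

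Cells whose leading genes placed them outside microglia and macrophages were looked at as a background for free RNA, and such clusters differed. In the S100a6-led cluster of 31 cells, whose leading genes include the lymphocyte genes Nkg7 and Cd3g, 0 UMIs of Axl, Mertk and Gas6 and 2 of Pros1 were found at a median of 6114 UMIs per cell. For each of the genes at 0, this allows a share of up to 9.68% of cells with a UMI. The Ttr-led cluster, with choroid plexus markers, went the other way in week 5 replicate 1. Its 15 cells there held 11 Axl, 14 Mertk, 19 Gas6 and 9 Pros1 UMIs, with the Axl UMIs in 2 cells. In week 5 replicate 2 its 5 cells held 4 Gas6 UMIs and 0 of Axl, Mertk and Pros1. Where these UMIs came from was not tested.

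Mertk followed another order of clusters. It was highest in the Insyn2b-led and the pair of Gm43221-led microglia-like clusters, at 964 to 1235 CPM in week 5 replicate 1 and 757 to 953 in replicate 2. These are the shallowest microglia-like clusters, with medians of 1090 to 1580 UMIs per cell. Next came the Lilrb4a-led cluster, at 766 and 610 in replicates 1 and 2, and the Camk2n1-led cluster, at 562 and 723, in an order that turned between the libraries. The Cxcl10-led cluster stood at 579 and 533, the Ddit4-led cluster at 473 and 404 and the Ccl4-led cluster at 319 and 259. Lower still in both libraries were the Spp1-led cluster, the deepest with a median of 13442 UMIs per cell, at 225 (207 to 244) and 116 (72.6 to 175), and the macrophage-like cluster, at 231 (166 to 312) and 75.9 (32.8 to 149.6). The intervals of this last pair overlapped in each library. High Axl stood beside high Mertk in the Lilrb4a-led cluster and beside low Mertk in the Spp1-led cluster. Mertk CPM fell with the depth of a cell in 3 of the 4 libraries: in week 5 replicate 1 it went from 1008 in cells under 2000 UMIs to 468 between 4000 and 8000 and 233 at 16000 or more.

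Gas6 was highest in the macrophage-like cells among the named classes. Macrophage-like cells held 504 CPM (437 to 578) against 105 in microglia-like cells (99.4 to 111). At 1000 UMIs per cell, 41.7% of macrophage-like cells had a Gas6 UMI against 9.35% of microglia-like cells. They held 16.7% of all Gas6 UMIs in week 0 replicate 1, 0.684% in week 0 replicate 2, and 15.1% and 13.6% in the week 5 libraries. Per library the level in macrophage-like cells was 465 and 136 at week 0 (the latter from 4 UMIs in 5 cells) and 626 and 427 at week 5. Microglia-like cells stood at 88.4 and 129.6 at week 0 and at 88.0 and 98.7 at week 5, with overlapping weeks.

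Pros1 had the opposite lean. Microglia-like cells held 223 CPM against 122 in macrophage-like cells (89.9 to 161). Over the microglia-like clusters of week 5 it ranged from 174 in the Ccl4-led to 229 in a Gm43221-led cluster, with overlapping intervals, and the Spp1-led cluster stood below this range at 117 (104 to 130). Per library, microglia-like cells held 235 and 232 at week 0 and 216 and 208 at week 5. So in these cells the level of Pros1 stayed within a narrow band.

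**Figure D3:**
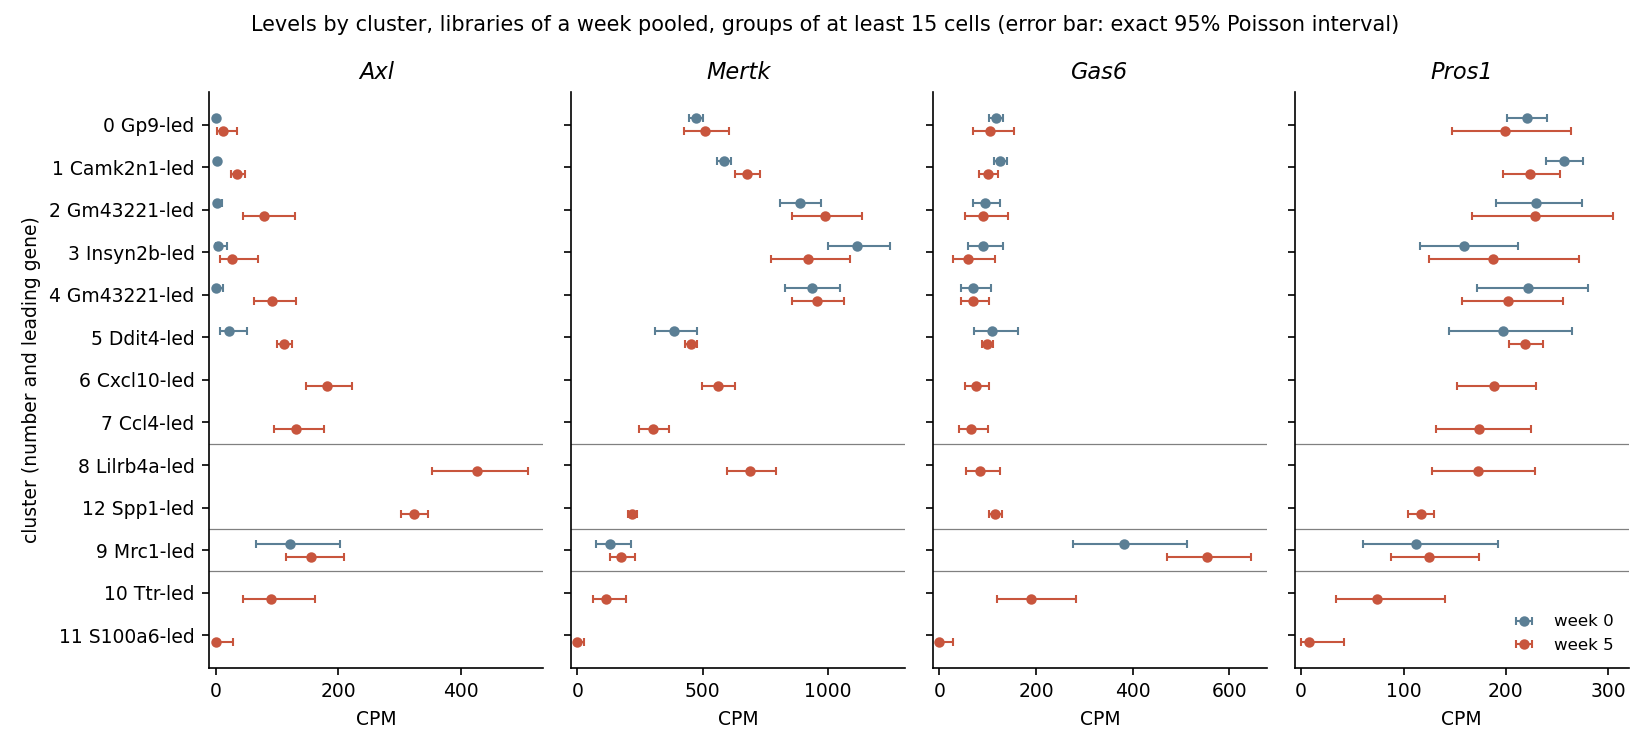
CPM of Axl, Mertk, Gas6 and Pros1 (linear axes) in each cluster at week 0 (blue) and week 5 (red), with the libraries of a week pooled and groups under 15 cells left out; error bars are exact 95% Poisson intervals. From top to bottom, grey lines part the microglia-like clusters, the unnamed Lilrb4a-led and Spp1-led clusters, the macrophage-like Mrc1-led cluster and the rest. Axl is near 0 in the microglia-like clusters of week 0 and reaches 427 in the Lilrb4a-led cluster, and Gas6 peaks in the Mrc1-led cluster.

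Over 19 library-by-cluster groups of at least 50 cells, the genes most like Axl in log2(CPM + 5) were Apoe, which carries lipids out of phagocytes (Pearson r = 0.957), Ifi207 (0.952) and Lgals3bp (0.951). Those most like Mertk were Arrb2 (0.959), Primpol (0.945) and Ints6l (0.944), and Mertk itself had r = -0.81 with the UMIs per cell of a group. For Gas6 no gene was above 0.757 (Polr2i), and for Pros1 the closest were Ccdc59 (0.827), Arl4c (0.820) and Tlr4 (0.806). Axl and Mertk had r = -0.24 with each other. These are descriptions over groups that share libraries and depth.

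Whether cells that gain Axl lose Mertk was asked within the week 5 libraries. Most Axl-positive cells, those with at least 1 Axl UMI, also had Mertk: 362 of 423 (85.6%) in replicate 1 and 139 of 193 (72.0%) in replicate 2. In Axl-negative cells the shares were 77.2% and 66.8%. Axl-positive cells were deeper, however, with medians of 8811 and 5237 UMIs against 4784.5 and 1805.5, and after reduction to 1000 UMIs before Axl-positive cells were chosen the order turned, to 31.3% and 27.5% in Axl-positive against 38.6% and 41.4% in Axl-negative cells. So with all UMIs both receptors were found in the same cell in most Axl-positive cells. The reduction that turned the order of the Mertk shares also left fewer cells Axl-positive (144 and 69). Among cells matched for depth, a comparison described below, the order did not turn. The shares there were 82.6% in Axl-positive and 81.1% in Axl-negative cells of replicate 1. In replicate 2 they were 72.7% and 68.98%, and the intervals overlapped in both libraries. What set the direction of the Mertk share was not tested.

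By level, Mertk did not differ between Axl-positive and Axl-negative cells beyond the error of the test. It stood at 463 normalised CPM in Axl-negative and 408 in Axl-positive cells of replicate 1, and at 505 and 409 in those of replicate 2. Lower in Axl-positive cells of both libraries, it differed by -0.24 on the log2 scale (SE 0.17, interval -0.57 to 0.09, adjusted p = 0.379, edgeR with library as a block). Gas6 and Pros1 did not pass either (0.15 and 0.18, adjusted p = 0.576 and 0.529). Of the 10407 genes tested, 1597 (15.3%) were called, 1033 higher and 564 lower in Axl-positive cells, and of these 3 members 0 were called by edgeR, at an unadjusted p under 0.05 or by DESeq2. With library size as the only scaling Mertk passed (-0.56, SE 0.16, adjusted p = 0.0225, edgeR). On that scale the median gene lay at -0.35 and 405 genes were called higher against 1751 lower.

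More Axl went with less Mertk and with deeper cells. In replicate 1 the Mertk level was 496 CPM in cells without Axl, 450 with 1 Axl UMI, 394 with 2 and 269 with 3 or more, while the median depth of the last 3 classes was 5971, 8105 and 13464 UMIs. In replicate 2 the levels were 578, 443, 375 and 284, at median depths of 5054, 5192 and 5633 for the last 3 classes. In the 3 depth bins under 8000 UMIs of replicate 1, Axl-positive and Axl-negative cells lay within each other's intervals, for example at 457 (409 to 509) and 473 (439 to 509) between 4000 and 8000 UMIs. Between 8000 and 16000 UMIs they stood at 315 (290.4 to 340.3) and 346 (299.96 to 397), with medians of 11072 and 9308 UMIs, so that this bin did not equal out the depth. In replicate 2 Axl-positive cells were lower in each bin under 8000 UMIs. Under 2000 UMIs they stood at 682 (487 to 929) against 755 (679 to 837) in Axl-negative cells. From 2000 to 4000 they stood at 486 (339 to 676) against 608 (500 to 731), with overlapping intervals. The bin from 4000 to 8000 gave 434 (384 to 489) in Axl-positive and 548 (512 to 587) in Axl-negative cells, whose intervals did not overlap. The bin above it gave the other order, 205 (149 to 274) against 88.6 (38.2 to 175), in 22 and 10 cells.

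In a comparison chosen after the data were seen, Axl-positive cells were set against Axl-negative cells of the same library within 10% of their depth. A partner was found for 270 of 423 Axl-positive cells in replicate 1 and 187 of 193 in replicate 2. In replicate 1 the median of the Axl-positive cells thereby went from 8811 to 6447 UMIs, so many of the deepest Axl-positive cells, in which Mertk was lowest, were left out. Mertk then stood at 425 against 452 CPM in replicate 1 and at 424 against 462 in replicate 2. The log2 difference was 0.04 (SE 0.12, interval -0.21 to 0.28, adjusted p = 0.945, edgeR), and -0.11 with library size as the only scaling (SE 0.12, adjusted p = 0.678, edgeR). Of 9297 genes, 739 (7.95%) were called between these cells. Gas6 was lower in Axl-positive cells of this comparison, at 91.1 against 125 in replicate 1 and 91.4 against 133 in replicate 2. It did not pass the test (log2 -0.34, SE 0.14, adjusted p = 0.110, edgeR) unless library size was the only scaling (-0.49, adjusted p = 0.00712, edgeR).

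Within single clusters the direction of the Mertk difference varied, as 7 clusters with at least 8 cells of each kind in both libraries showed. In the Ddit4-led cluster Axl-negative and Axl-positive cells stood at 476 and 470 CPM in replicate 1 and at 408 and 398 in replicate 2. The Lilrb4a-led cluster gave 924 and 688, and 648 and 565. In these clusters Axl-positive cells were the lower ones in both libraries. They were the higher ones in the Spp1-led cluster, where Mertk is low (157 and 228, and 40.5 and 142, with 12 Axl-negative cells in each library), and in the Ccl4-led cluster (208 and 371, and 210.0 and 306). So they were among macrophage-like cells, at 126 (67.0 to 215) and 368 (246 to 528) in replicate 1 and at 60.7 and 82.9 in replicate 2. The Cxcl10-led cluster (587 and 574, and 493 and 604) and a Gm43221-led cluster (874 and 1396, and 977 and 737) turned between the libraries. Of these 14 pairs of values, the intervals of 1 did not overlap, that of macrophage-like cells in replicate 1.

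**Figure D4:**
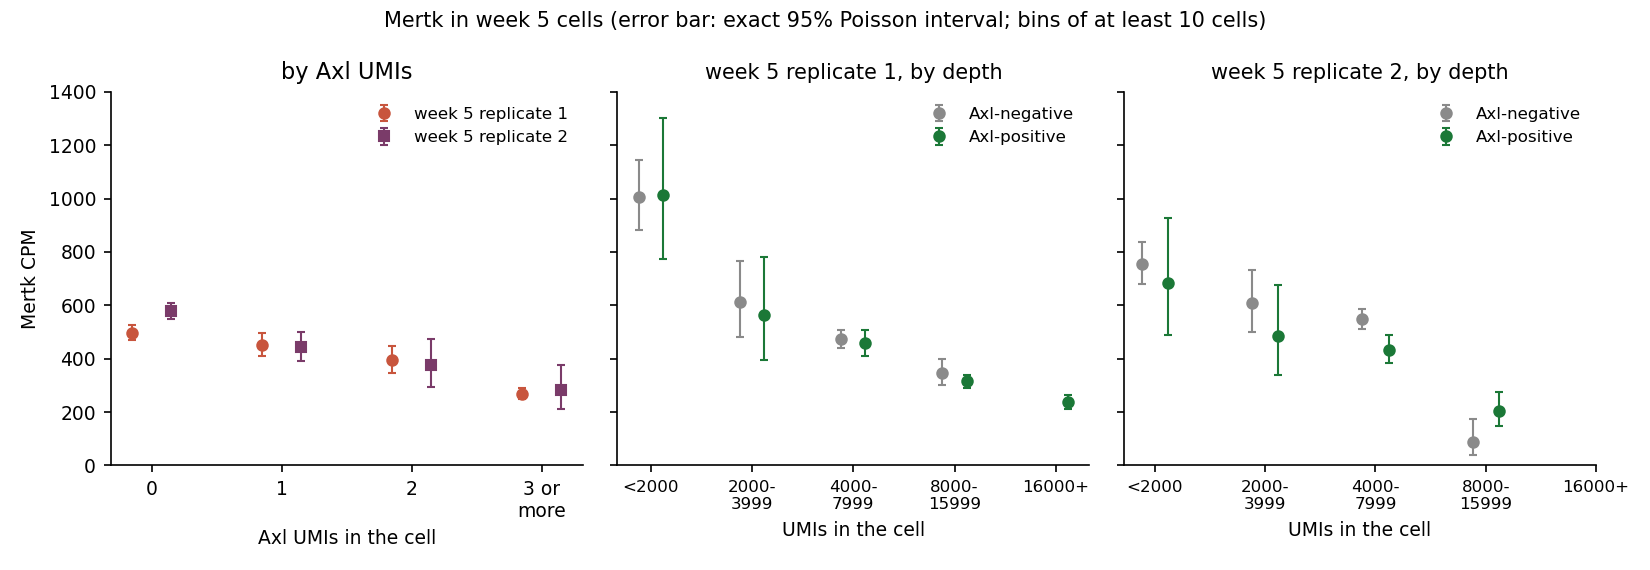
Mertk CPM in week 5 cells, on the left by the number of Axl UMIs in the cell (circles replicate 1, squares replicate 2), in the middle and on the right by the UMIs of the cell for Axl-negative (grey) and Axl-positive cells (green) of each library; error bars are exact 95% Poisson intervals and bins under 10 cells are left out. Mertk falls from 496 and 578 without Axl to 269 and 284 with 3 or more Axl UMIs, and it falls with depth in both kinds of cell.

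Disease-associated and interferon genes were mostly higher in Axl-positive than in Axl-negative cells, beside the difference in depth given above, and some homeostatic genes were lower. Of 21 disease-associated genes of microglia, 21 were called higher in Axl-positive cells by edgeR (20 by DESeq2). Their median log2 was 2.16, where 15.3% of all genes were called in either direction by edgeR. Among cells matched for depth, where 7.95% of all genes were called, 21 were higher (median 1.22). Of 19 interferon genes, 18 were called higher by edgeR (14 by DESeq2, and 19 by edgeR among matched cells). Of 17 homeostatic genes 8 were called lower and 0 higher by edgeR (6 lower by DESeq2), and 10 were lower among matched cells. The medians of all genes tested were -0.02 and -0.00. Between the weeks, where 2.70% of all genes were called, 11 of the 21 disease-associated genes and 19 of the 19 interferon genes were called higher, and 1 of the 17 homeostatic genes lower. By DESeq2 these counts were 15, 18 and 5. The homeostatic list had a median log2 of -0.53 between the weeks, and 5 of its genes were lower at an unadjusted p under 0.05 (edgeR).

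Spp1 went from 97.0 to 2161 normalised CPM in replicate 1 and from 75.1 to 1226 in replicate 2 between Axl-negative and Axl-positive cells (log2 4.26, SE 0.21, adjusted p = 8.8e-30, edgeR), and 90.8% of its week 5 UMIs lay in the Spp1-led cluster. Cst7, an inhibitor of lysosomal cysteine proteases, went from 83.4 to 1122 and from 33.2 to 240 (log2 3.37, SE 0.20, adjusted p = 8.48e-25, edgeR). Rsad2, which encodes the antiviral protein viperin, went from 11.7 to 97.9 and from 11.8 to 63.1 (log2 2.78, SE 0.21). In the other direction P2ry12, the ADP receptor of resting microglia, went from 2181 to 766 and from 1696 to 1116 (log2 -1.06, SE 0.19, adjusted p = 1.57e-05, edgeR), and the fructose transporter gene Slc2a5 from 213 to 60.2 and from 174 to 93.6 (log2 -1.42, SE 0.17).

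Several of the genes with the steepest change rested on few cells. The chemokine gene Cxcl9 had 288 UMIs in Axl-positive and 2 in Axl-negative cells, but in 9 Axl-positive cells and with 144 UMIs in 1 cell (ratio 136, counting interval 37.4 to 1131). Cxcl10 had 658 against 4 UMIs in 15 and 2 cells. The Wnt-pathway gene Dkk2 had 66 against 4 UMIs and Atp6v0d2, which encodes a proton pump subunit, 50 against 3 (ratio 15.8, 5.10 to 79.1), both mostly in the Spp1-led cluster. On the lower side Sox2ot had 0 UMIs in Axl-positive and 43 in Axl-negative cells, at least 15.1-fold lower against a floor of 3 UMIs over the group, and the 43 were in 10 cells. Gjc3, Pex5l, Spint2 and Anxa1 each had 1 UMI in Axl-positive cells and 69, 67, 50 and 35 in Axl-negative cells, the latter in 15, 13, 20 and 16 cells. Most Spint2 UMIs were in the Ttr-led cluster (86.3%) and most Anxa1 UMIs in the S100a6-led cluster (83.3%). Axl had 11 UMIs in the Ttr-led cluster and 0 in the S100a6-led cluster.

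Genes around the receptors were also compared between the weeks, in a test that recovered 47.8% of 2-fold changes simulated in the more abundant genes. Recovery among genes of low level was not simulated. Of 55 genes in 6 lists on TAM signalling and related receptors, 43 could be tested and 2 were called, both higher, against the 2.70% of all genes called. One of them, Cd300lf, a phosphatidylserine receptor, went from 1.17 and 2.45 to 26.4 and 21.7 (log2 3.60, SE 0.38, adjusted p = 0.00129, edgeR). Among the 6 genes of ligand maturation and receptor shedding, 0 of 6 were called by edgeR (1 at an unadjusted p under 0.05, Vkorc1, and 0 by DESeq2), and Adam17, the protease that releases the Mertk ectodomain, stood at 166 and 171 at week 0 and at 175 and 156 at week 5. Of 13 signalling genes tested, 0 were called by edgeR or DESeq2, and 1 had an unadjusted p under 0.05, namely Elmo1, a partner of Dock1 in engulfment, at -0.65 (SE 0.29, adjusted p = 0.347, edgeR). Ifnar1 and Ifnar2, the interferon receptor subunits that work with Axl in its feedback on cytokine signalling, did not pass (log2 0.21 and 0.23, adjusted p = 0.749 and 0.787, edgeR). Trem2, another lipid receptor of microglia, did not pass either (0.22, adjusted p = 0.880, edgeR). Of 11 phosphatidylserine receptor and bridging genes tested, 2 were higher and 2 lower at an unadjusted p under 0.05 (edgeR). These were Itgav, Itgb3, Cd300lf and Cd300lb, and DESeq2 called 1 of the 11 genes higher. Of 8 nuclear receptor and target genes tested, 0 were called by edgeR and 1 was called higher by DESeq2. Abcg1 was higher at an unadjusted p under 0.05 (edgeR).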

How the data were processed

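Each table the authors deposited holds raw UMI counts, whole numbers for every gene in 1000 barcodes. The submitters' processing notes list STAR, Cell Ranger 3.0.0, Seurat 4 and mm10 without saying what each did; the choice of barcodes is not explained there. A gene missing from a table was taken as 0.

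Cells needed 500 genes or more and a mitochondrial share of UMIs up to 10%, which removed 272 barcodes. Scrublet marked 24 doublets (0.644%), left out of clustering only. The other 3704 cells were clustered with scanpy 1.11.5 (10000 UMI scaling, 2000 variable genes without the 4 members, 30 components, 15 neighbours, Leiden resolution 1) into 14 clusters, named from marker lists. A rebuilt name may differ from the study's. Counts were summed per library, or per library and cells with and without Axl, and compared with edgeR 4.0.16 (R 4.3.3; quasi-likelihood test, TMM factors, filterByExpr, Benjamini-Hochberg threshold 0.05). DESeq2 1.42.0 was an alternative. In simulated data, changes were planted only in genes above a minimum level. On such data the week comparison recovered 47.8% of 2-fold and 99.6% of 4-fold changes with 9.56% false calls, and the Axl comparison 96.2%, 100% and 4.54%. Intervals and floors (3 counts) cover counting error only. Same-numbered libraries did not deviate together, and replicates differed by more than sampling noise (chi-square per degree of freedom 13.5 at week 0 and 28.5 at week 5).

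The members and lists were chosen with earlier results of these data known. The text names the members, the called genes of each list with the largest change and its most abundant others, the 5 steepest genes in each direction between Axl-positive and Axl-negative cells, and the 3 genes most alike each member. Alternatives covered scaling, test, filters, depth, cells used and left-out libraries. Values of 1 called gene and of 1 small cluster are not reported here. Sequences are from RefSeq (GRCm38.p6).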

Additional observations from a re-analysis of the deposited data

Results flagged for a closer look

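The change of Axl differed between cell classes: the log2 difference between its change in macrophage-like cells and its change in microglia-like cells was -4.30 (SE 0.82, adjusted p = 0.000283, edgeR). It was singled out because a test of the difference itself passed, and that test was thought of after the values were seen. It rests on 14 Axl UMIs in 21 macrophage-like cells at week 0, and it did not pass without week 0 replicate 1 or without week 5 replicate 1.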

How the results depend on the processing

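Axl rose and passed under all 14 alternatives run (log2 4.43 to 6.14), of which 4 leave 1 library in a week and assume that it varies like the other week's, and Mertk and Pros1 kept their direction and stayed short of the threshold in theirs (-0.43 to -0.01 and -0.37 to -0.02). With the replicate block Axl was 5.09 and 336 genes were called; the block changed no call of a member, and the deviations of same-numbered libraries had r = -0.0356, so the numbers were not taken to pair the samples. Gas6 turned to -0.0752 (library size only), -0.13 (microglia-like cells) and -0.0617 (thinned cells), and ranged from -0.101 to 0.43 with 1 library left out. Genes called between the weeks went from 304 to 920 (no gene filter), 185 (thinned) and 514 (common limit on genes per cell), and to 298 to 1484 with 1 library left out, the most without week 5 replicate 2; with library size as the only scaling 295 were higher and 89 lower, around a median of -0.24.

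Between Axl-positive and Axl-negative cells, Mertk was -0.56 with library size only and 0.0354 in depth-matched cells, -0.30 to -0.18 with 1 library left out. Genes called were 385 (DESeq2), 843 (microglia-like cells), 96 (thinned), 235 (no library block), 739 (depth-matched) and 834 (depth-matched, library size only). Gas6 was -0.19 (library size only), -0.27 (microglia-like), -0.62 (thinned), -0.34 (depth-matched), -0.49 (depth-matched, library size only) and -0.12 to 0.33 by library; Pros1 was -0.14 (library size only), -0.0702 (depth-matched, library size only) and 0.00294 to 0.37 by library. The difference between macrophage-like and microglia-like changes ranged, with 1 library left out, from -5.30 to -3.41 for Axl, -0.54 to 1.22 for Mertk, 0.10 to 2.83 for Gas6 (which passed without week 0 replicate 1) and -0.0728 to 0.76 for Pros1, and the genes called from 0 to 9; DESeq2 was not run on it. The Axl share rose by 18.8 points at 2000 UMIs per cell, 7.26 at 500 and 7.54 in microglia-like cells. The Mertk share differed by -3.48 at 500 UMIs and -3.89 in microglia-like cells, the Gas6 share by -0.439 at 500 and -0.599 at 2000 UMIs, and the Pros1 share differed by -1.59 at 500 UMIs and by -0.84 in microglia-like cells. The cause of these shifts was not tested. Axl at week 0 rests on 18 and 14 UMIs.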
